A study of Caenorhabditis elegans with 6 samples.

Results

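The insulin-like peptide genes were taken as every gene named ins- followed by a number, together with daf-28, that a probe set annotated with a single gene reads on the Affymetrix C. elegans array. The rule found 24 of the 17118 genes on the array, read by 25 probe sets, and the probe set with the highest mean over the 6 arrays stood for each gene. RNA came from whole Caenorhabditis elegans, a nematode worm, grown at 20 °C. One group was wild type, strain N2, and the other carried the allele tm1978 of hlh-30, with 3 biological replicates each and 1 array per replicate. Each replicate was a mixture of RNA from embryos and from larvae of the L1 and L2 stages, so that a value averages 3 stages and every tissue, and neither group was treated. HLH-30, the TFEB homologue of the worm, is a transcription factor of the basic helix-loop-helix class. The sources used here do not say whether the mutant had been outcrossed, so other differences between the strains cannot be told apart from that in hlh-30.

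Insulin-like peptides are small secreted proteins made as precursors in neurons, intestine and hypodermis. They bind the insulin receptor homologue DAF-2, whose kinase cascade through AGE-1, PDK-1 and AKT keeps the FOXO transcription factor DAF-16 out of the nucleus. By genetics some peptides act as agonists of DAF-2 and others as antagonists, and their balance sets recovery from L1 arrest, entry into the dauer stage (a long-lived alternative larva) and adult lifespan.

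The family as RefSeq lists it on assembly WBcel235 holds 40 genes, and the 24 genes read here were all matched to it by Entrez gene number. The other 16 were not analysed here. Of the 24, 9 lie on chromosome II, 5 on I, 4 on III, 3 on IV, 2 on V and 1 on X. ins-2, ins-3, ins-4, ins-5 and ins-6 follow each other as neighbouring protein-coding genes on chromosome II, as do ins-24, ins-30 and ins-26 on chromosome I and ins-21, ins-22 and ins-23 on chromosome III.

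Values are log2 expression levels as deposited, between a floor of 2.04 and 16.95. A gene counted as expressed, and was tested, where 3 or more of the 6 arrays read 4 or higher. This held for 9113 genes (53.2%). The hlh-30 transcript was lower on each mutant array than on every wild-type array, with wild type at 12.05, 12.07 and 12.34 and the mutant at 10.52, 10.65 and 9.66 on its brightest probe set. The fitted difference was −1.88 (SE 0.29, limma adjusted p 0.128), which was not called. Its other probe sets, at −2.15 and −2.28, were not called either (limma adjusted p 0.121 and 0.26). The absence of a call therefore does not show that a gene was unchanged. Wild type 3 and mutant 3 stood apart from their groups. Wild type 1 and 2 correlated at 0.996 over the probe sets tested and mutant 1 and 2 at 0.997, whereas wild type 3 correlated with the other wild types at no more than 0.978 and mutant 3 with the other mutants at no more than 0.964. Values without this pair of arrays are therefore given beside those from all arrays. The pair was picked from these same data, and leaving it out narrows the spread within each group. P-values without the pair are thus descriptive. Of the embryo markers on the array 10 of 18 were expressed and of the larval markers 16 of 17, against 2 of 14 yolk, sperm and other adult markers, with vit-2, vit-5, msp-142, spe-9 and spe-11 among those at the floor on all arrays. The embryo markers averaged 7.94, 7.59 and 7.22 on the wild-type arrays and 7.12, 7.16 and 8.85 on the mutant arrays, so mutant 3 read highest.

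Of the 24 insulin-like peptide genes 14 (58.3%) were expressed, and each of the 14 read at least 4 on all 6 arrays. They were daf-28, ins-1, ins-2, ins-5, ins-6, ins-11, ins-17, ins-18, ins-22, ins-30, ins-33, ins-34, ins-35 and ins-39. The other 10 read under 4 on every array of both genotypes. Among these 10, ins-7, ins-21, ins-23, ins-31, ins-32 and ins-37 stood at the floor of 2.04 on all 6 arrays. The remaining ins-3, ins-4, ins-24 and ins-26 read between 2.23 and 2.83, also on every array. The minimum of 4 thus fell in a gap, as the lowest value of an expressed gene was 4.64 (ins-6 on wild type 3) and the highest of the others 2.83 (ins-4 on mutant 1).

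A low reading does not show that a transcript was absent. The probe set of daf-2, the receptor of these peptides, read 2.59 on all 6 arrays, identical to the last deposited digit, and unc-31, which is needed for release of dense core vesicles from neurons, stood at the floor. Identical readings also occurred among the expressed genes. Of the 14, only daf-28, ins-2, ins-18, ins-33 and ins-35 had 6 distinct values, and the other 9 shared a value between 2 or more arrays, as 41.0% of all genes tested did. ins-39 read 6.15, the same deposited value, on 4 arrays (wild type 1 and 3, mutant 2 and 3), and ins-30 read 9.13 on 3 (wild type 1 and 3, mutant 2). What made these values identical was not tested. A spread computed from them may be too small.

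**Figure D1:**
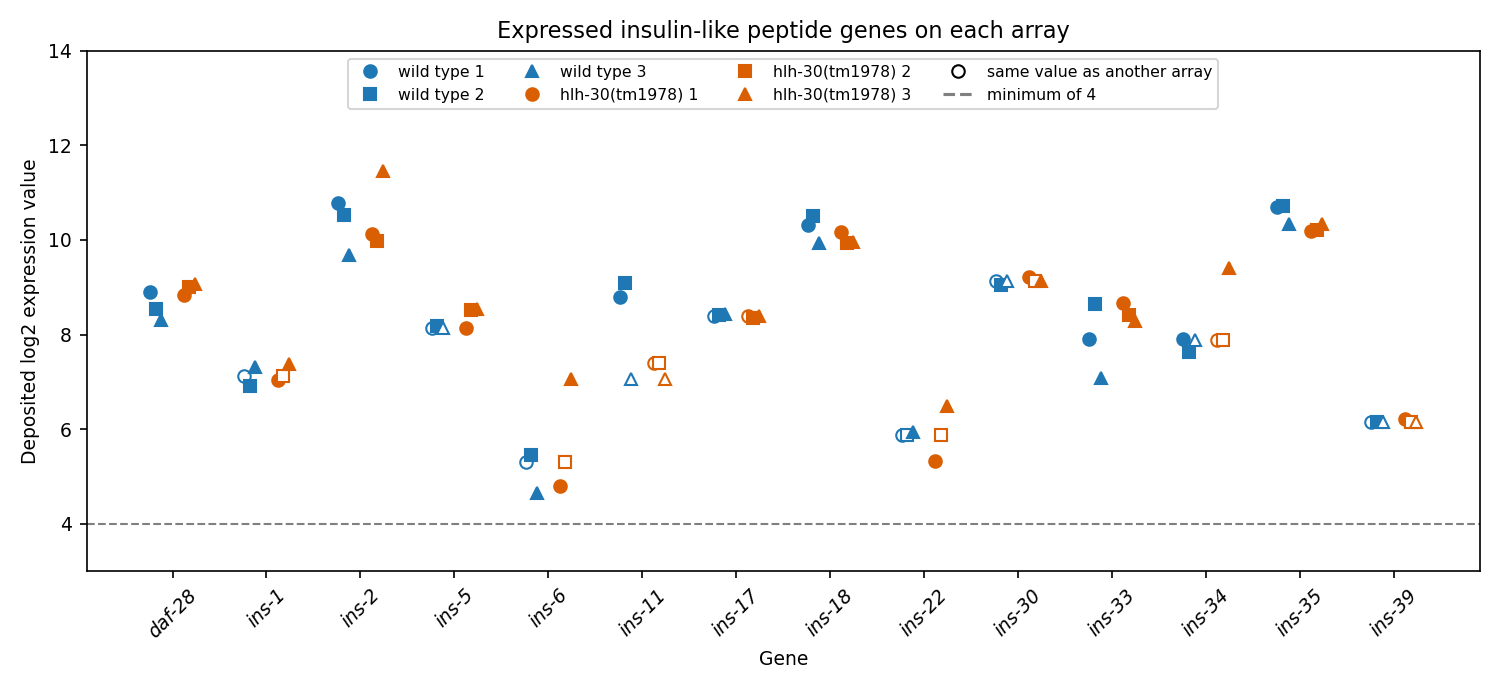
Deposited log2 expression value (vertical axis) of the 14 expressed insulin-like peptide genes (horizontal axis) on each array, wild type in blue and hlh-30(tm1978) in orange, with circles, squares and triangles for replicates 1, 2 and 3. Open symbols mark values identical to that of another array, and the dashed line is the minimum of 4. Mutant 3 reads above the other arrays for ins-2, ins-6, ins-22 and ins-34, and by less for daf-28, ins-1 and ins-5. Wild type 1 and 2 read above the other arrays for ins-11.

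None of the 14 genes differed between the genotypes at a limma adjusted p under 0.05, where 0.143% of all genes tested were called. At an unadjusted p under 0.05 there was 1, ins-35, which was lower in the mutant, as were 6.94% of all genes tested. The values of the genotypes overlapped in all 14, whereas 13.6% of all genes tested had no overlap. The fitted change was above 0 in 9 genes and below 0 in 5, against 46% and 52.1% of all genes tested. The median was 0.060 on the log2 scale for the 14 genes and −0.010 over all genes tested. Without wild type 3 and mutant 3 the change was above 0 in 7 and below 0 in 7, against 39.6% and 55.7% of all genes, with medians of 0.0034 and −0.031. On those 4 arrays 1 gene, ins-35, was called lower, where 1.94% of all genes were. ins-2, ins-11, ins-18 and ins-35 then had both mutant arrays below both wild types, where 34.8% of all genes did. The 95% intervals show what 3 arrays per genotype could resolve. In 9 of the 14 genes the interval stayed within a log2 change of 1, a 2-fold change, in either direction, and in ins-2, ins-6, ins-11, ins-33 and ins-34 it reached beyond. Among those 9, ins-1, ins-5, ins-17, ins-22, ins-30 and ins-39 shared values between arrays, so their intervals may be too narrow.

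**Figure D2:**
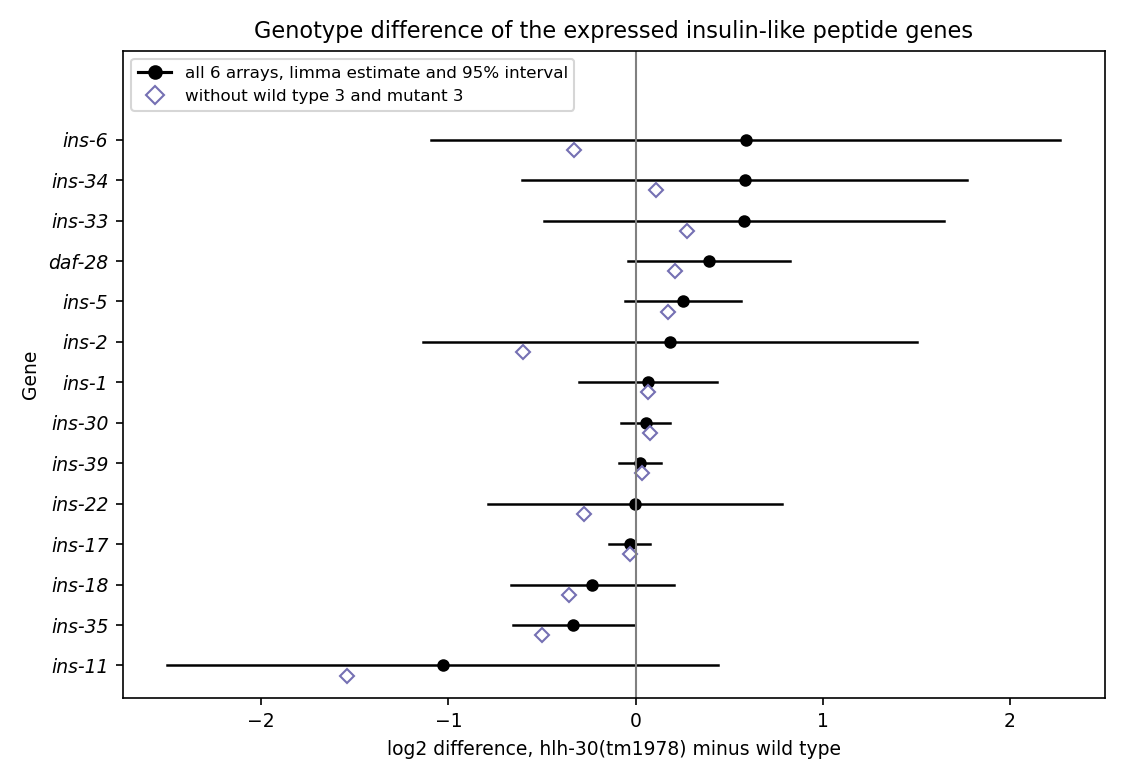
Difference between hlh-30(tm1978) and wild type (horizontal axis, log2 scale) for the 14 expressed insulin-like peptide genes (vertical axis). Filled circles with bars are the limma estimates and 95% intervals from all 6 arrays, and open diamonds the estimates without wild type 3 and mutant 3. ins-11 lies lowest at −1.03 and ins-6 highest at 0.59, and ins-2 and ins-6 change sign without the arrays numbered 3.

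Among peptides that act as agonists of DAF-2, 7 were on the array and 4 were expressed: daf-28, ins-6, ins-33 and ins-35. None of the 4 was called. daf-28, made in sensory neurons and known for keeping larvae out of the dauer stage, read 8.89, 8.53 and 8.31 in wild type and 8.84, 9.01 and 9.07 in the mutant. Mutant 3 and mutant 2 were above all wild types, and mutant 1 lay below wild type 1. Wild type averaged 8.58 ± 0.29 (SD, n = 3) and the mutant 8.97 ± 0.12 (SD, n = 3). The log2 difference was 0.39 (SE 0.17, 95% interval −0.039 to 0.83, limma adjusted p 0.604). Without the arrays numbered 3 it was 0.21.

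ins-35 is expressed in the intestine and is known for acting with ins-7 against dauer entry. It read 10.69, 10.72 and 10.33 in wild type and 10.20, 10.21 and 10.33 in the mutant. Wild type 1 and 2 were above every mutant array, and the groups overlapped only because mutant 3 lay just above wild type 3. Wild type averaged 10.58 ± 0.22 (SD, n = 3) and the mutant 10.25 ± 0.074 (SD, n = 3). The log2 difference was −0.33 (SE 0.13, 95% interval −0.65 to −0.0094). Its unadjusted limma p was 0.0457 and its adjusted p 0.531. Without wild type 3 and mutant 3 the difference was −0.50 (SE 0.023, limma adjusted p 0.042), and with array quality weights, which weight down arrays that vary more, it was −0.48 (limma adjusted p 0.0202). The omitted arrays were picked, and the weights set, from these same data. These p-values are therefore neither independent of each other nor separate support. Calls over all genes rose from 13 to 204 when the arrays numbered 3 were omitted. The 17 intestine markers, all expressed, averaged 10.99, 11.04 and 11.23 on the wild-type arrays and 10.84, 10.95 and 10.67 on the mutant arrays, and 14 of the 17 had a fitted change below 0. The others, elt-2, cpr-6 and gem-4, were fitted above 0, at 0.29, 0.10 and 0.090, and at 0.41, −0.11 and −0.18 without the arrays numbered 3. The log2 summed level of the markers ran from 16.86 to 17.06 in wild type and from 16.56 to 16.79 in the mutant. asp-1, the brightest at a mean of 15.60, weighs most in this sum, so it is a limited measure of intestine RNA. The part of the intestine markers in the reading of ins-35 was not tested. In whole worms, fewer cells of a type and less RNA per cell cannot be told apart.

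ins-6, a neuronal agonist known for promoting exit from the dauer stage, read 5.30, 5.45 and 4.64 in wild type and 4.80, 5.30 and 7.06 in the mutant. A single array, mutant 3, was high, and mutant 2 shared its value with wild type 1. The log2 difference was 0.59 (SE 0.65, 95% interval −1.09 to 2.27, limma adjusted p 0.803) and −0.33 without the arrays numbered 3. ins-33 read 7.91, 8.64 and 7.08 in wild type and 8.68, 8.42 and 8.28 in the mutant. Wild type 3 was low and wild type 2 lay among the mutants. The difference was 0.58 (SE 0.42, 95% interval −0.49 to 1.65, limma adjusted p 0.736), and 0.27 without the arrays numbered 3. The agonists ins-3, ins-4 and ins-7 were among the genes under 4 on all arrays. ins-7, which DAF-16 is known to repress, stood at the floor in both genotypes.

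Among antagonists of DAF-2, 5 were on the array and 4 were expressed: ins-1, ins-17, ins-18 and ins-39. None was called, and their differences lay between −0.23 and 0.067. ins-18, known for promoting dauer formation, read 10.32, 10.50 and 9.93 in wild type and 10.17, 9.94 and 9.95 in the mutant. Wild type 1 and 2 were above all mutant arrays and wild type 3 was below them. The difference was −0.23 (SE 0.17, 95% interval −0.67 to 0.20, limma adjusted p 0.74), and −0.36 without the arrays numbered 3, with a limma adjusted p of 0.247. ins-1, the peptide closest in form to human insulin and known from learning in sensory circuits, read 7.13, 6.91 and 7.32 in wild type and 7.04, 7.13 and 7.38 in the mutant. The groups overlapped, with the arrays numbered 3 highest in each, and the difference was 0.067 (SE 0.14, 95% interval −0.30 to 0.44, limma adjusted p 0.902) and 0.068 without them. ins-17, also known for promoting dauer formation, spanned only 8.35 to 8.43 over the 6 arrays, with a difference of −0.032 (SE 0.042), or −0.028 without the arrays numbered 3. ins-39 spanned 6.14 to 6.21, with a difference of 0.023 (SE 0.043), or 0.035 without those arrays, and was the gene with the same value on 4 arrays. The remaining antagonist, ins-37, was at the floor.

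The other 12 genes were given no role, and 6 of them were expressed. Among these ins-11 had the largest fitted change of the 14 genes tested. ins-11 is an intestinal and neuronal peptide known from infection studies, in which its induction in the intestine by bacterial pathogens depended on HLH-30. Its probe set (Entrez gene 173941, chromosome II, next to ins-12) has a name ending in _s_at, which marks probes shared by several transcripts. It read 8.80, 9.08 and 7.07 in wild type and 7.40, 7.40 and 7.07 in the mutant. Wild type 1 and 2 were high and the other 4 arrays lower. Wild type 3 had the same deposited value as mutant 3, and mutant 1 the same as mutant 2. Wild type averaged 8.32 ± 1.09 (SD, n = 3) and the mutant 7.29 ± 0.19 (SD, n = 3). The log2 difference was −1.03 (SE 0.57, 95% interval −2.50 to 0.44, limma adjusted p 0.682). Leaving out wild type 3 alone gave −1.65 (limma adjusted p 0.109), leaving out wild type 2 gave −0.65 and leaving out wild type 1 gave −0.79. With both arrays numbered 3 omitted it was −1.54 (SE 0.12, limma adjusted p 0.0533). With array quality weights it was −1.42 (limma adjusted p 0.0485). As for ins-35, these p-values rest on arrays picked or weighted from the same data. The size of the ins-11 difference thus changed with the wild-type arrays used.

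ins-2 read 10.78, 10.54 and 9.69 in wild type and 10.13, 9.98 and 11.46 in the mutant. Mutant 3 was highest and wild type 3 lowest, so the arrays numbered 3 set both ends of its range. The difference was 0.19 (SE 0.51, 95% interval −1.13 to 1.51, limma adjusted p 0.927), and −0.60 without those arrays (SE 0.12, limma adjusted p 0.124), where both remaining mutants lay below both remaining wild types. ins-34 read 7.90, 7.63 and 7.88 in wild type and 7.88, 7.88 and 9.40 in the mutant. Mutant 3 was high, and wild type 3, mutant 1 and mutant 2 shared a value. The difference was 0.58 (SE 0.46, 95% interval −0.60 to 1.77, limma adjusted p 0.756), and 0.11 without the arrays numbered 3. ins-22, whose tagged protein is widely used to mark dense core vesicles, read 5.87, 5.87 and 5.94 in wild type and 5.32, 5.87 and 6.49 in the mutant. The mutant arrays spread to both sides of the wild types, and the difference was −0.0027 (SE 0.31). It was −0.28 without the arrays numbered 3, −0.30 without mutant 3 alone and 0.28 without mutant 1, so its sign changed with the arrays used.

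ins-5 read 8.14, 8.17 and 8.14 in wild type and 8.15, 8.51 and 8.55 in the mutant. Mutant 2 and 3 were above all wild types and mutant 1 lay among them, with a difference of 0.25 (SE 0.12, 95% interval −0.059 to 0.57, limma adjusted p 0.629) and of 0.18 without the arrays numbered 3. ins-30 spanned 9.06 to 9.21 over the 6 arrays, with a difference of 0.054 (SE 0.050), or 0.077 without those arrays. It was the expressed gene of its chromosome I neighbours, as ins-24 and ins-26 on either side of it read under 4. Likewise ins-22 was expressed between ins-21 and ins-23, both at the floor, and within the chromosome II run ins-2, ins-5 and ins-6 were expressed while ins-3 and ins-4 were not.

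The arrays numbered 3 moved several of these genes by more than the genotypes did. Mutant 3 lay more than 1 above the mean of mutant 1 and 2 for 3 of the 14 genes, ins-6 by 2.02, ins-34 by 1.53 and ins-2 by 1.40, and 9.16% of all genes tested did so. None of the 14 lay more than 1 below it, as 1.65% of all genes did. Wild type 3 lay more than 1 below the mean of wild type 1 and 2 for ins-11 (−1.88) and ins-33 (−1.19), and 4.17% of all genes tested did so. The order of the arrays for ins-2 was close to that of the embryo markers, with mutant 3 highest, then wild type 1 and wild type 2, and the other 3 arrays below them. The log2 summed level of the 18 embryo markers ran from 12.58 to 13.13 in wild type and from 12.75 to 13.63 in the mutant. Of these markers end-3, med-1 and tbx-37 were at the floor on all arrays. The brightest, skn-1 and pos-1 at means of 12.13 and 10.64, weigh most in this sum. On mutant 3 skn-1 was at its lowest, 11.73, and pos-1 at its highest, 12.69. Neuron markers, of which 15 of 20 were expressed, averaged 9.50, 9.64 and 9.88 in wild type and 9.64, 9.62 and 9.40 in the mutant. Their log2 summed level ran from 14.50 to 14.83 and from 14.46 to 14.69, with tph-1, cat-2 and rgef-1 at the floor. The part of embryo and neuron transcripts in the readings of ins-2, ins-6, ins-22 and ins-34 was not tested.

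**Figure D3:**
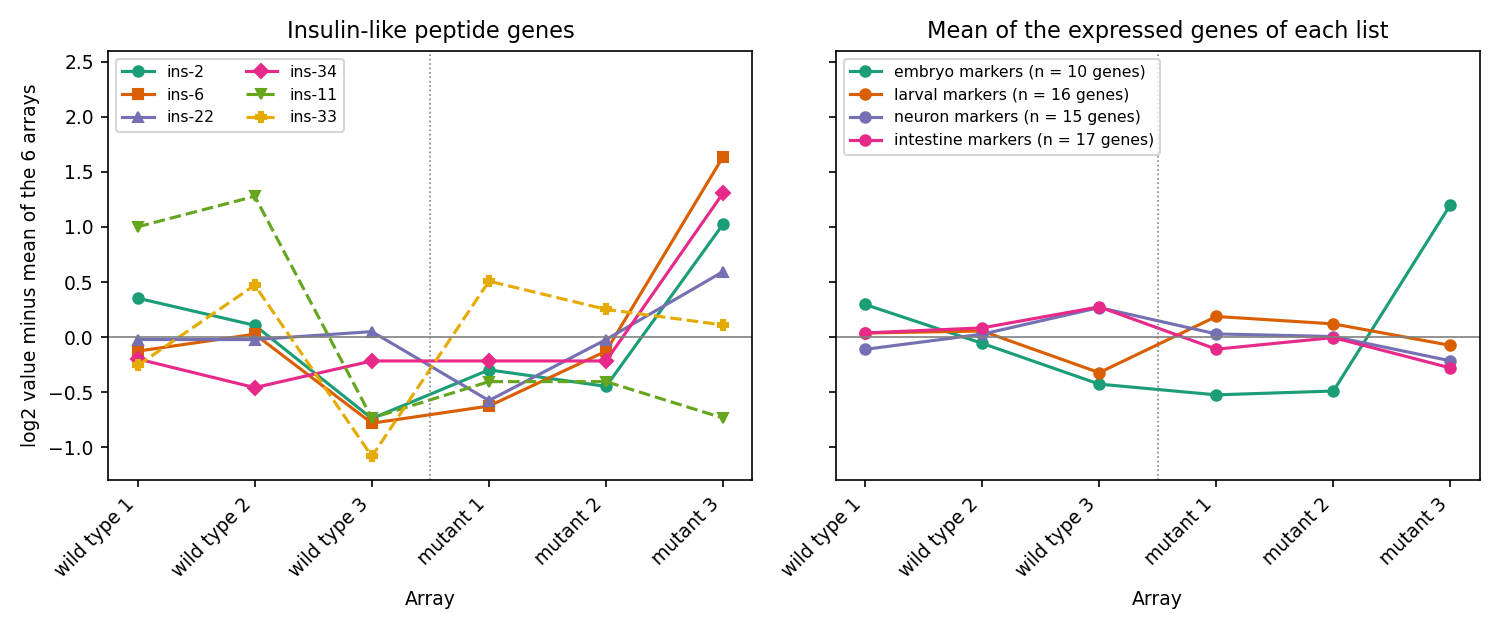
Left, log2 value minus the mean of the 6 arrays (vertical axis) for ins-2, ins-6, ins-22, ins-34, ins-11 and ins-33 on each array (horizontal axis, the dotted line divides the genotypes). Right, the same for the mean of the expressed embryo, larval, neuron and intestine markers. ins-2, ins-6, ins-22 and ins-34 are highest on mutant 3, as the embryo markers are, and ins-11 and ins-33 are low on wild type 3.

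Genes that carry the signal of these peptides into the cell were read beside them. All 21 genes of the DAF-2 pathway list were on the array and 16 were expressed. None was called by limma, 2 were lower at an unadjusted p under 0.05, where 6.94% of all genes tested were, and in 4 the mutant arrays all lay below the wild-type arrays, as in 9.87% of all genes tested. Of the 16, 13 had a fitted change below 0, where 52.1% of all genes did, 2 above and 1 at 0. Most genes were also below 0 in other lists: 14 of 17 peptide processing genes, 12 of 15 neuron markers and 14 of 17 intestine markers. Of the larval markers 3 of 16 were below 0 and of the embryo markers 2 of 10. These counts are from all arrays. The embryo marker median was 0.21 with all arrays and −0.55 without the arrays numbered 3. The neuron marker median was −0.12 and 0.043, and that of peptide processing −0.13 and 0.0031. In these lists the sign of the median thus changed with the arrays used. It was kept for larval markers, at 0.15 and 0.0575, and for intestine markers, at −0.22 and −0.18. The 16 genes of the DAF-2 pathway had a median of −0.14, which was −0.13 without the arrays numbered 3. The 4 that did not overlap were akt-2 at −0.53 (SE 0.17) and akt-1 at −0.21 (SE 0.051), kinases that phosphorylate DAF-16, pptr-1 at −0.36 (SE 0.15), a phosphatase subunit that acts on AKT-1, and eak-7 at −0.31 (SE 0.13), which acts in parallel to AKT. Their limma adjusted p-values were 0.456, 0.283, 0.585 and 0.607. Without the arrays numbered 3 their differences were −0.32, −0.17, −0.19 and −0.44. daf-16 read 9.88 ± 0.083 (SD, n = 3) in wild type and 9.64 ± 0.25 (SD, n = 3) in the mutant, with overlapping arrays and a difference of −0.23 (SE 0.14, limma adjusted p 0.704), or −0.15 without the arrays numbered 3. age-1, the phosphatidylinositol kinase, differed by 0.040 (SE 0.057), or 0.067 without those arrays.

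Genes that cut and release peptide precursors were largely expressed, 17 of 18 on the array, and none was called or had an unadjusted p under 0.05. The median was −0.13 with all arrays and 0.0031 without the arrays numbered 3. egl-3, the main proprotein convertase of neurons, differed by −0.15 (SE 0.092, limma adjusted p 0.71) and egl-21, the carboxypeptidase that acts after it, by −0.14 (SE 0.097, limma adjusted p 0.724). Without the arrays numbered 3 these were −0.027 and −0.0075. In 2 of 17 genes the mutant arrays all lay below the wild-type arrays, near the 9.87% of all genes tested. These were kpc-1, another proprotein convertase, at −0.35 (SE 0.17, limma adjusted p 0.629) and sbt-1, the chaperone of EGL-3, at −0.072 (SE 0.043, limma adjusted p 0.692). They read −0.14 and −0.057 without the arrays numbered 3.

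Genes known as targets of DAF-16 lie at the end of the pathway. Of 24 on the array 19 were expressed, of which 17 were fitted below 0, where 52.1% of all genes tested were. The list was not split by whether DAF-16 raises or lowers each gene, so these counts and medians do not measure DAF-16 activity. The median of the 19 was −0.31, and −0.24 without the arrays numbered 3, against −0.010 and −0.031 over all genes tested. The 17 intestine markers, which share mtl-1 with this list, had a median of −0.22, and −0.18 without those arrays, and their part in the differences of the list was not tested. The long noncoding RNA tts-1 fell (fitted log2 difference −7.23, SE 0.46, limma adjusted p 0.0321), and no other was called. It read 11.38, 11.50 and 11.32 in wild type and 5.13, 4.001 and 3.39 in the mutant. With the value under 4 set to 4 the difference was −7.02. The groups lay far apart, but the call was lost without a filter (limma adjusted p 0.095) and when wild type 1, 2 or 3 or mutant 2 or 3 was left out (limma adjusted p 0.207, 0.157, 0.104, 0.202 and 0.0603), at differences between −6.83 and −7.27. At an unadjusted p under 0.05 there were 8 of 19, 7 of them lower, against 8.59% of all genes tested and 6.94% lower. In 9 of 19 the genotypes did not overlap, 8 of them lower, against 13.6% and 9.87% of all genes tested. Both counts include tts-1. The list was chosen with earlier results of these data known, so the counts are descriptive and no test of the list. spp-12, a saposin-like protein, differed by −0.93 (SE 0.21, limma adjusted p 0.251), dod-3 by −1.67 (SE 0.35, limma adjusted p 0.225) and sod-3, a mitochondrial superoxide dismutase, by 0.93 (SE 0.18, limma adjusted p 0.198). None of these had overlap between the genotypes, and without the arrays numbered 3 they differed by −0.82, −1.86 and 0.83. Without the arrays numbered 3 no gene of this list was called, and tts-1 differed by −6.87 with a limma adjusted p of 0.051.

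**Figure D4:**
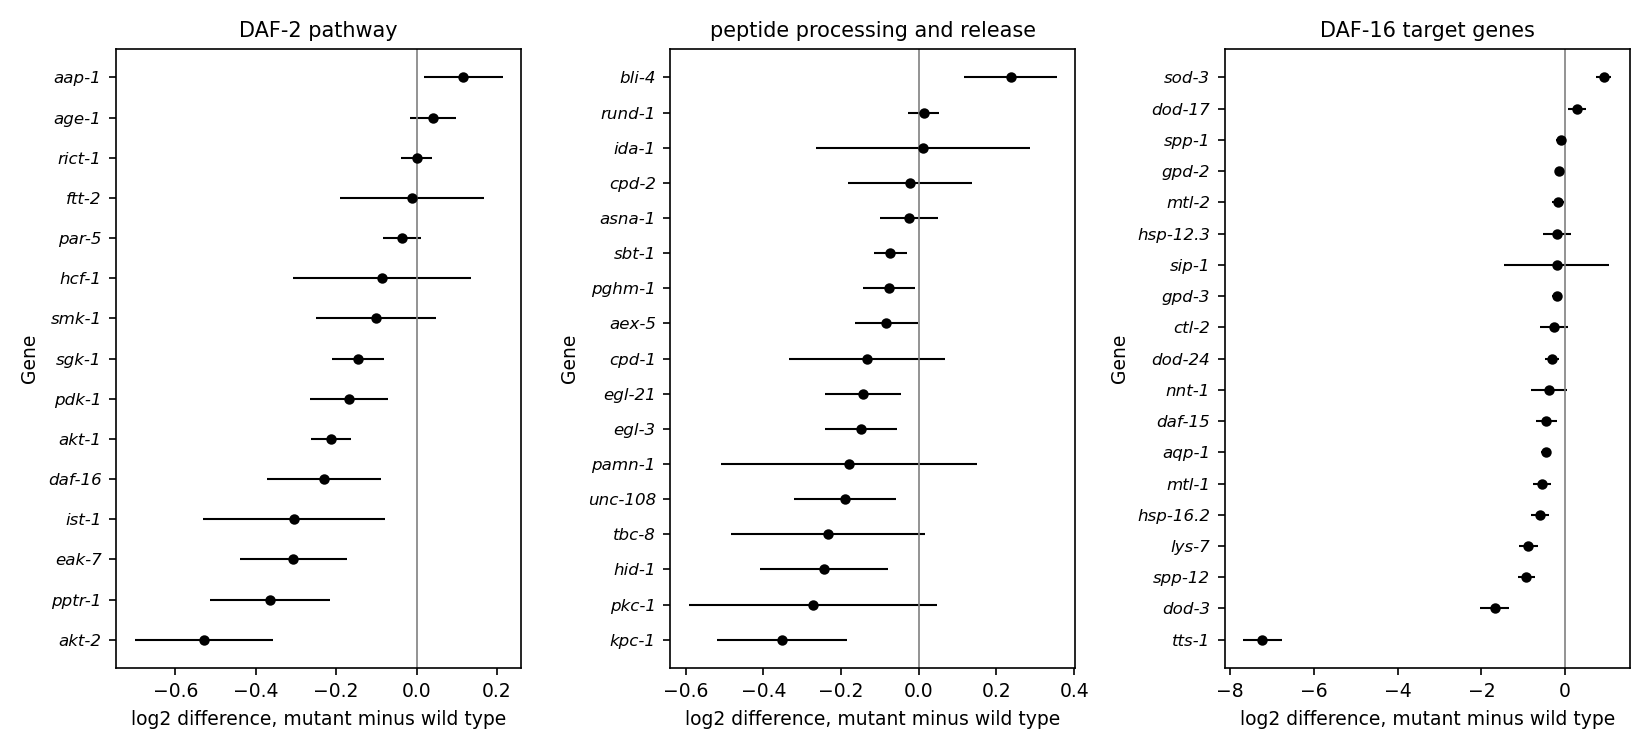
Difference between hlh-30(tm1978) and wild type (horizontal axes, log2 scale, each panel with its own range) for 15 of the 16 expressed genes of the DAF-2 pathway and all expressed genes of peptide processing and release and of the DAF-16 target list (vertical axes). Points are limma estimates from all 6 arrays and bars their standard errors. akt-2 is lowest in the first list at −0.53, kpc-1 in the second at −0.35 and tts-1 in the third at −7.23.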

How the data were processed

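RNA of whole worms was measured on 6 Affymetrix arrays, 3 per genotype. The values are log2 expression levels that the authors deposited for each probe set on each array. GCRMA and limma are the tools named, per the submitters' processing notes, and their versions are not given here. Scanner intensities were not analysed here, so detection calls and scan dates were not used. Precision is limited by the number of arrays. The labels call the replicates biological. Control probe sets (77) were left out. Of the rest, 12060 passed the minimum of 4 on 3 arrays and were fitted in R 4.3.3 by lmFit and eBayes of limma 3.58.1, with genotype as the only term. P-values were adjusted by Benjamini-Hochberg over all of these, and calls made at 0.05. Intervals are from the moderated fit. Correlations over probe sets describe the arrays and are no test. The smallest p that exact permutation of 3 against 3 arrays allows for 1 gene is 0.1.

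The members and gene lists were chosen with earlier results of these data known. Values were named for each expressed member, for a fixed set of pathway genes (1 of which is not reported here), and for called genes and up to 4 genes per list with the smallest p among those whose groups did not overlap. Genes were named through the platform annotation. The files name no genome build, so RefSeq WBcel235 was used only for names, chromosomes and neighbours. Levels of different probe sets were not compared as amounts, except in the summed marker levels. Those sums add unlogged values of different probe sets, so the brightest weigh most. The alternatives tried were other filters, scalings, floors, variance models, weights, probe set choices, a replicate block and the omission of arrays, and, chosen after seeing the data, the omission of probe sets with identical values.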

Additional observations from a re-analysis of the deposited data

How the results depend on the processing

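No insulin-like peptide gene was called in 16 of 18 alternatives. The exceptions were array quality weights with 2 called (ins-11 and ins-35) and the omission of both arrays numbered 3 with 1 (ins-35), and leaving out any 1 array gave 0 (limma). Omitting both arrays numbered 3 raised the calls over all genes from 13 to 204. The share of all genes called with the weights is not given here, so the counts called with them in each list cannot be set against it. Without a filter all 24 genes entered the fit and without probe sets holding identical values 5 did. The median difference of the peptide genes lay between −0.035 and 0.21 when 1 array was left out, which was also its range over all 18 alternatives. Signs changed in at least 1 alternative for ins-1, ins-2, ins-6, ins-17 and ins-22, none of them called. For ins-17 quantile normalization and median centring turned it. The DAF-2 pathway list had 2 called with array quality weights, akt-1 and sgk-1, and 0 otherwise. The DAF-16 target list had 5 called with those weights (tts-1, dod-3, spp-12, aqp-1 and lys-7), 0 with no filter, 0 without the arrays numbered 3, and 0 to 1 when 1 array was left out, where tts-1 was kept without mutant 1 alone. With the replicate number as a block 0 of that list and 0 peptide genes were called. Same-numbered arrays deviated from their group means in opposite directions (correlations −0.41, −0.42 and −0.52). So did wild type 1 and mutant 2 (−0.47) and wild type 2 and mutant 1 (−0.27). With 3 arrays per group these correlations depend on each other and cannot settle whether replicates were paired. The numbers were not treated as pairs in the main fit. Why calls and signs changed between the alternatives was not tested.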
